A study of Mus musculus with 6 samples.

Results

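The genes described here are 10 regulators of the switch between epithelial and mesenchymal states, taken by symbol from the 56748 Ensembl mouse genes measured. They are 5 mesenchymal repressors (Zeb1, Zeb2, Snai1, Snai2 and Twist1) and 5 epithelial regulators (Grhl2, Ovol1, Elf3, Ehf and Esrp1), and each symbol matched 1 identifier. mRNA was sequenced from 4T1, a cell line from a mouse mammary carcinoma, labelled as wild type and grown in medium with 10% serum. The treated group (3 libraries) received Au/MoS2/Bi2S3 heterojunction particles at 125 µg/mL overnight and then near-infrared light for 8 min, and was washed 24 h later. The control group (3 libraries) is labelled only as control, and both groups are labelled as collected for 48 h. The comparison concerns particles and light combined, and neither was analysed here on its own. The design text speaks of RNA pooled from cells of 3 individuals and does not say whether the libraries of a group are separate cultures. A p-value here accordingly reflects the spread between these particular libraries, which may be technical.

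In epithelial-mesenchymal transition, cells lose junctions and polarity and gain motility, a step carcinoma cells can use to leave a tumour. The ZEB and SNAIL zinc finger proteins bind E-box sequences in promoters of epithelial genes such as Cdh1, which encodes E-cadherin, and repress them, while TWIST1 is a basic helix-loop-helix factor that binds E-boxes with E-protein partners. GRHL2, OVOL1 and the ETS factors ELF3 and EHF maintain epithelial transcription. ESRP1, an RNA-binding protein and not a transcription factor, keeps the epithelial forms of many spliced mRNAs. ZEB proteins and the miR-200 microRNAs repress each other, through sites in the 3′ untranslated region (UTR) of the Zeb mRNAs and E-boxes at the microRNA genes.

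Reads at genes numbered 33.2 to 33.8 M (mega) in treated libraries and 32.6 to 38.1 M in controls. They were calculated back from the deposited FPKM (fragments per kilobase of transcript, scaled between libraries). The FPKM of all genes summed to between 235757 and 241953 in treated and between 450409 and 532583 in control libraries. The treated libraries were alike and the controls were not, with a median SD between replicates of 0.07 in treated and 0.27 in control libraries on the log2(FPKM + 1) scale. The 100 most abundant genes took 19.0% to 19.4% of reads in treated and 33.0% to 36.1% in control libraries. Genes above 0 numbered 21821 to 22088 in treated libraries, against 18115, 18988 and 15829 in control 1, 2 and 3, so fewer scarce genes were detected in controls. Mitochondrially encoded mRNAs took between 1.21% and 1.32% of reads in treated libraries, against 0.0891%, 0.701% and 0.00902% in control 1, 2 and 3. Keratin genes of simple epithelium were abundant in every library, and Cdh1 mRNA was at or near 0 in both groups, which puts the 4T1 label in question. The part of these differences in the results below was not tested.

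The regulators divided into genes that rose, genes that fell and genes whose mRNA was hardly detected. Zeb1, Zeb2, Snai2 and Grhl2 rose between 3.47-fold and 5.83-fold in treated cells. Twist1, the most abundant regulator in every library, fell 4.78-fold, and Elf3 fell 2.12-fold. Snai1 was not called, and Ovol1, Ehf and Esrp1 stood at or near 0 in both groups. By these values, both the mesenchymal and the epithelial side held a gene that rose and a gene that fell. On the epithelial side this rests on Grhl2, which reached 1 FPKM only in treated libraries, and on Elf3. The log2 fold change of Elf3 was -0.03 with each library scaled to the same FPKM total. Its call was also lost when some single libraries were left out. In these bulk samples, fewer cells of a type and less RNA per cell cannot be told apart.

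Calls were made with limma on 11118 genes that reached 1 FPKM in 3 or more libraries, at a Benjamini-Hochberg adjusted p under 0.05. Of all genes tested, 27.9% were called higher, 28.3% lower and thus 56.1% in either direction. Of the 10 regulators, 7 were tested, 4 of them were called higher and 2 lower, and the other 3 lay below the filter. Zeb2, Snai2 and Grhl2 reached 1 FPKM in all 3 treated and in 0 control libraries, so they entered the test only through the group where they were high. Of the 694 genes that entered in that way, 98.6% were called higher. The calls of these 3 genes therefore carry no information beyond their values. Treated libraries lay above every control for Zeb1, Zeb2, Snai2 and Grhl2 and below every control for Twist1 and Elf3. Among all genes tested, 33.6% lay above and 34.1% below, so the groups did not overlap for 67.7%.

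**Figure D1:**
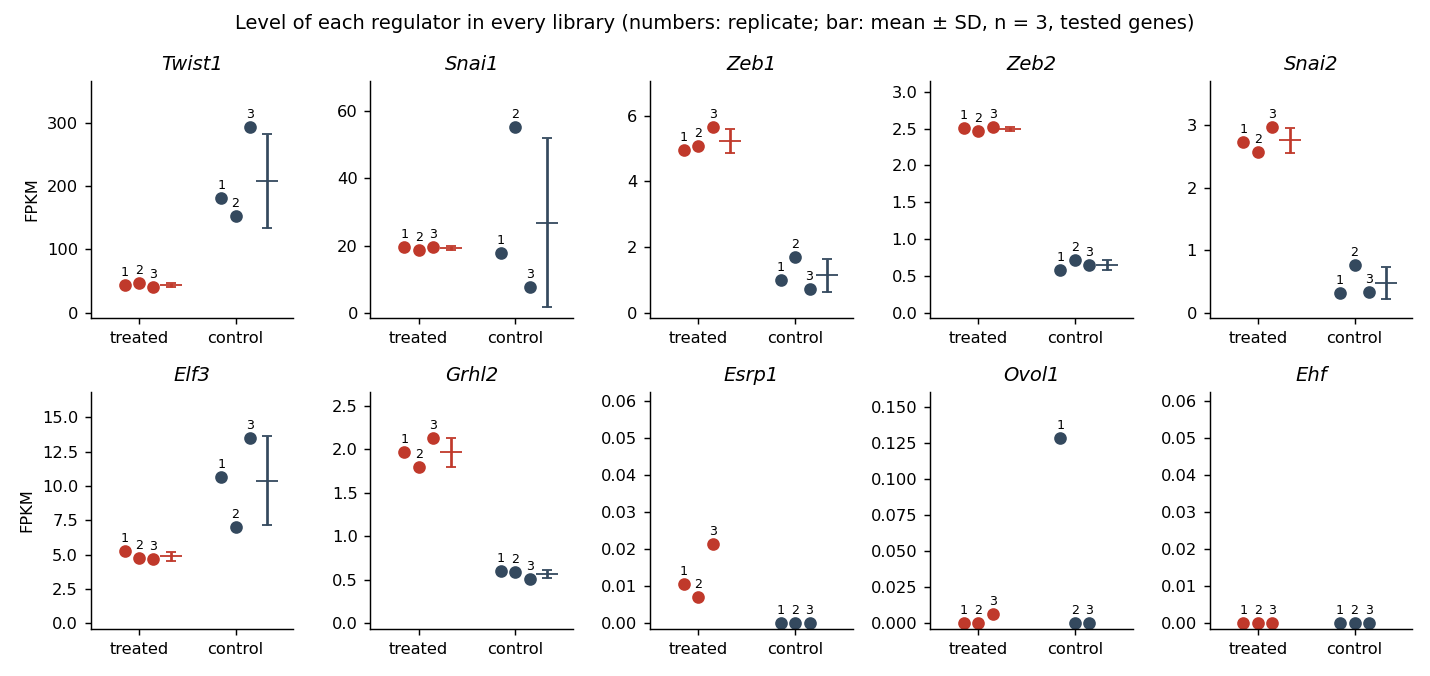
FPKM of the 10 regulators, 1 panel per gene, each with its own linear vertical axis. Points are the 3 treated libraries (left) and the 3 control libraries (right), numbered by replicate, with mean ± SD for the 7 tested genes. Treated points lie close together, whereas control 2 stands high for Snai1, Zeb1 and Snai2 and control 3 for Twist1 and Elf3.

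Among the mesenchymal repressors, both ZEB genes rose. Zeb1 (chromosome 18, 5591860 to 5775467, plus strand) encodes a repressor with zinc finger clusters at both ends. It stood at 4.97, 5.07 and 5.65 FPKM in treated 1, 2 and 3, against 1.01, 1.70 and 0.723 FPKM in control 1, 2 and 3. Every treated library was above every control, and control 2 was the highest control. Means were 5.23 ± 0.367 FPKM in treated and 1.14 ± 0.503 FPKM in control cells (SD, n = 3 each), a 4.57-fold rise. On the log2(FPKM + 1) scale, which understates changes of low values, the fold change was 1.56 ± 0.18 SE (limma adjusted p = 0.000921). The values rest on 2293, 2300 and 2566 reads in treated and 324, 554 and 174 reads in control libraries.

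Zeb2 (chromosome 2, 44983632 to 45117395, minus strand), the second ZEB repressor, stood at 2.51, 2.47 and 2.52 FPKM in treated 1, 2 and 3, against 0.574, 0.712 and 0.648 FPKM in control 1, 2 and 3. The 3 controls were also close together, and the groups were far apart. The rise was 3.88-fold (log2 fold change 1.09 ± 0.08 SE, limma adjusted p = 0.00033). Whole reads could not be calculated back for Zeb2 with the GENCODE M21 exon length, so the authors' gene model may differ there. Its antisense neighbour Zeb2os, whose reads could not be told apart without a stated strand setting, reached at most 0.136 FPKM in treated and 0.594 FPKM in control libraries.

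The next sequences show where the miR-200 link lies in these mRNAs, since the regulators differ in their matches to the miR-200 seeds. In each mature microRNA, from RefSeq on GRCm38.p6, capitals mark the seed, bases 2 to 8. The first 3 share 1 seed and the other two share another.
miR-200b-3p: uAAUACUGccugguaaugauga
miR-200c-3p: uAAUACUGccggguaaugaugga
miR-429-3p: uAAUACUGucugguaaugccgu
miR-200a-3p: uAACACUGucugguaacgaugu
miR-141-3p: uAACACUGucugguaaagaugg
The Zeb2 transcript with the longest annotated 3′ UTR (GENCODE M21, 4941 bases) held 5 matches to the first seed, CAGTATT, and 4 to the second, CAGTGTT. Its CAGTATT matches, on the minus strand of chromosome 2 on GRCm38, are printed as DNA with the match in capitals.
chr2:44988173-44988194: gcactaccatacatCAGTATTt
chr2:44988108-44988129: gcactacagtgcatCAGTATTa
chr2:44987746-44987767: tgaagcacccgtgtCAGTATTa
chr2:44987661-44987682: ttcattaattttgtCAGTATTa
chr2:44987527-44987548: catactgtagtgtaCAGTATTa
The 3′ UTR of Zeb1 (2401 bases) also held 5 and 4. Snai2 had 2 matches in 1089 bases, Snai1 had 1 in 731 and Grhl2 had 1 in 2718, and Twist1, Ovol1, Elf3, Ehf and Esrp1 had 0. In the first 1000 bases, Zeb2 held 7 matches, Zeb1 held 5 and Snai2 held 2. Of all 10232 genes with a 3′ UTR of that length or more, 21.6% had at least 1 match there to either seed and 3.55% had 2 or more. A match describes the sequence and shows neither binding nor an effect. Mature microRNAs were not measured, since the libraries were made from poly-A RNA in fragments of 150 to 200 bp. The loci Mir200a, Mir200b, Mir200c, Mir141 and Mir429 were listed at 0 in all 6 libraries.

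Snai2 (chromosome 16, 14705852 to 14709385, plus strand), which encodes the SLUG repressor, stood at 2.73, 2.57 and 2.96 FPKM in treated 1, 2 and 3. Controls 1, 2 and 3 stood at 0.316, 0.765 and 0.338 FPKM, on 20, 49 and 16 reads. The groups were apart, and control 2 was again the highest control. The rise was 5.83-fold (log2 fold change 1.36 ± 0.14 SE, limma adjusted p = 0.000673).

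Snai1 (chromosome 2, 167538195 to 167542814, plus strand), which encodes the SNAIL repressor, was not called. It stood at 19.6, 18.6 and 19.6 FPKM in treated 1, 2 and 3, against 17.7, 55.2 and 7.58 FPKM in control 1, 2 and 3. The treated values lay inside the control range, which spanned 7.28-fold, while treated libraries differed by at most 1.06-fold. The fitted log2 difference was -0.04 ± 0.64 SE (limma adjusted p = 0.96). Set against each control alone, it was 0.11, -1.47 and 1.24 for control 1, 2 and 3, so the direction differed between controls.

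Twist1 (chromosome 12, 33957671 to 33959829, plus strand) was the repressor that fell. It stood at 43.7, 47.3 and 40.2 FPKM in treated 1, 2 and 3, against 181.0, 152.4 and 293.2 FPKM in control 1, 2 and 3. Every treated library was below every control, and control 3 was the highest. The fall was 4.78-fold, or -2.18 ± 0.25 SE as a log2 fold change (limma adjusted p = 0.000978). Reads numbered 3197, 3400 and 2893 in treated and 9223, 7867 and 11187 in control libraries.

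Promoters were looked up in RefSeq (GRCm38.p6) for the E-box CACCTG or its reverse complement CAGGTG, the sequence the ZEB and SNAIL factors bind. The table held 4 of the regulators, and 20.2% of its 32851 promoters of 300 bases had a match. Snai1 and Elf3 had 1 each, shown with the motif in capitals. Twist1 and the 4 listed starts of Zeb2 had 0 in these windows.
Snai1, chr2:167537945-167538244, plus strand: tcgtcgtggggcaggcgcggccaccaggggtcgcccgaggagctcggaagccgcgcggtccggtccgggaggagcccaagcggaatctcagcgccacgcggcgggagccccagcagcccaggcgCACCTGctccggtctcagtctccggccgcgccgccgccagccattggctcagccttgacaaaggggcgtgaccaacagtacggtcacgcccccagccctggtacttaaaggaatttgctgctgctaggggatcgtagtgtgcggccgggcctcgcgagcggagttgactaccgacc
Elf3, chr1:135258423-135258722, minus strand: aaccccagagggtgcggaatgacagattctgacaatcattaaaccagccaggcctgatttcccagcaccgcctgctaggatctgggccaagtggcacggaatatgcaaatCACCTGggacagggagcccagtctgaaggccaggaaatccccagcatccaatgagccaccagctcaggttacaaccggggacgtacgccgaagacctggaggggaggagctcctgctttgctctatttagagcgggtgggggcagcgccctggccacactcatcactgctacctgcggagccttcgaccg
The motif began 126 bases before the start in Snai1 and 140 before it in Elf3. The Snai1 and Twist1 promoters were rich in CpG, with 34 and 27 CpG dinucleotides against a median of 7 per promoter, and Elf3 had 12.

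Shares within a library do not depend on scaling between libraries. They can still carry differences between the groups that follow gene length, GC content or level, for which they were not adjusted. Twist1 made up 59.5%, 62.2% and 56.6% of the summed FPKM of the 5 repressors in treated 1, 2 and 3, against 90.2%, 72.3% and 96.9% in control 1, 2 and 3. Zeb1 and Zeb2 together made up 10.2%, 9.92% and 11.5% in treated libraries, against 0.789%, 1.14% and 0.453% in controls. The Snai1 share was 26.6%, 24.5% and 27.7% in treated libraries and 8.83%, 26.2% and 2.51% in controls. Treated libraries thus held a larger ZEB share and a smaller Twist1 share than every control, and for Snai1 control 2 lay among the treated values. The repressors summed to between 70.9 and 76.0 FPKM in treated and between 200.7 and 302.5 FPKM in control libraries. The level of Twist1 was 8.79, 9.32 and 7.11 times that of Zeb1 in treated libraries and 179.5, 89.5 and 405.4 times that of Zeb1 in controls.

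**Figure D2:**
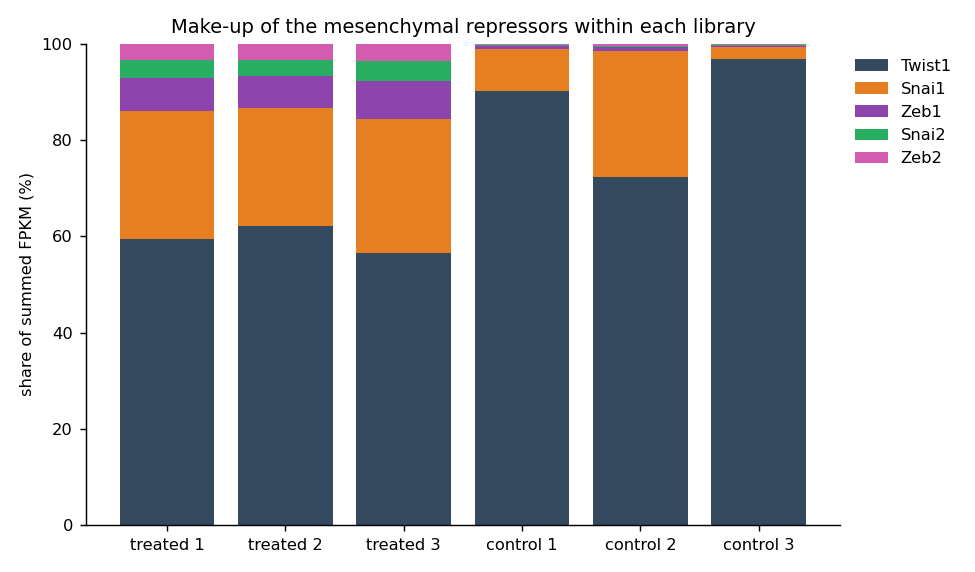
Share of each mesenchymal repressor in their summed FPKM, in percent, with 1 stacked bar per library, treated libraries on the left. Twist1 takes between 56.6% and 62.2% in treated libraries and between 72.3% and 96.9% in controls.

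Of the epithelial regulators, Grhl2 (chromosome 15, 37233036 to 37363569, plus strand), a grainyhead-like factor that activates junction genes, rose. It stood at 1.97, 1.80 and 2.13 FPKM in treated 1, 2 and 3, against 0.601, 0.586 and 0.510 FPKM in control 1, 2 and 3. The 3 controls were close together and the groups were apart. The rise was 3.47-fold (log2 fold change 0.92 ± 0.09 SE, limma adjusted p = 0.00055). The antisense gene Gm16137, which overlaps it, reached 0.536 FPKM in treated and 0.665 FPKM in control libraries, and their reads could not be told apart without a stated strand setting. Zeb1, which represses Grhl2 in other epithelial cells, stood at 2.52, 2.82 and 2.65 times the Grhl2 level in treated libraries and at 1.68, 2.90 and 1.42 times that level in controls. Those ratios overlapped between the groups.

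Elf3 (chromosome 1, 135253575 to 135258568, minus strand), an epithelial ETS factor, fell. It stood at 5.28, 4.74 and 4.69 FPKM in treated 1, 2 and 3, against 10.7, 7.04 and 13.5 FPKM in control 1, 2 and 3. Every treated library was below every control, with control 2 the nearest. The fall was 2.12-fold, or -0.91 ± 0.22 SE as a log2 fold change (limma adjusted p = 0.014). Against control 2 alone it was -0.45. The call was lost without treated 2 (limma adjusted p = 0.0512), treated 3 (0.0539) or control 1 (0.0521). With each library scaled to the same FPKM total it was -0.03 (limma adjusted p = 0.872).

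The mRNAs of Ovol1, Ehf and Esrp1 were hardly detected and lay below the filter. Ehf (chromosome 2, 103263433 to 103303278), another epithelial ETS factor, was listed at 0 in all 6 libraries. If reads are independent, a count of 0 allows up to 3 reads, which is 0.0122 FPKM or less in treated and 0.023 FPKM or less in control libraries. Esrp1 (chromosome 4, 11331933 to 11386783) had 3, 2 and 6 reads in treated libraries and 0 in each control, or at most 0.0215 FPKM in treated libraries, and 0 in controls allows up to 0.0203 FPKM. Ovol1 (chromosome 19, 5549136 to 5560646), a zinc finger repressor that restrains Zeb1 in other cells, had 1 read in treated 3 and 14 reads in control 1, where it stood at 0.128 FPKM, and 0 in the other libraries. The treated libraries of Esrp1 lay above every control, on these few reads. In a limma fit with no filter on low values, Esrp1 (adjusted p = 0.331) and Ovol1 (adjusted p = 0.484) were not called. These limits cover counting error only, because amplified reads with no molecular identifier do not each stand for a molecule. Both reads of a fragment could be counted here, so the limits may be too low.

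Several other genes of these families were also scarce. Ovol2 was listed at 0 in all 6 libraries. Esrp2 stood at 0.0359, 0.0261 and 0.0521 FPKM in treated 1, 2 and 3 and was listed at 0 in every control, and Grhl1, a relative of Grhl2, stayed under 0.1 FPKM throughout. Of 17 other epithelial regulators, 12 were under 1 FPKM in all 6 libraries. Snai3 also stayed low, at 0.232 FPKM or less. Twist2, the relative of Twist1, stood at 2.43, 2.10 and 2.26 FPKM in treated and 0.765, 1.34 and 0.807 FPKM in control libraries and rose (log2 fold change 0.74, limma adjusted p = 0.00501), although not with the trend for length, GC content and level removed (0.32, limma adjusted p = 0.0983).

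Among the 7 tested regulators, the order by level per length in treated libraries was Twist1, Snai1, Zeb1, Elf3, Snai2, Zeb2 and Grhl2, and the ranges of Zeb1 and Elf3 overlapped. In controls it was Twist1, Snai1, Elf3, Zeb1, Zeb2, Grhl2 and Snai2. There the ranges of Snai1 and Elf3, of Zeb2 and Grhl2 and of Grhl2 and Snai2 overlapped. The control range of Snai2, 0.316 to 0.765 FPKM, also overlapped those of Zeb1 and Zeb2. These 7 thus spanned 40.2 to 47.3 FPKM for Twist1 down to 1.80 to 2.13 FPKM for Grhl2 in treated cells, and Esrp1, Ovol1 and Ehf lay below them in both groups.

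The regulators that rose were scarce and Twist1 was abundant, and fold changes in these data fell with level. The genes tested were put into 10 bins of equal size by mean log2 level, and the bin medians of the log2 fold change ran down to -0.93 in the most abundant bin, with 0.52 in the least abundant. Grhl2 lay in bin 1, Zeb2 and Snai2 in bin 2 (median 0.30), Zeb1 in bin 3 (0.27), Elf3 in bin 6 (-0.02), Snai1 in bin 8 (-0.27) and Twist1 in bin 10. Their own values of 0.92, 1.09, 1.36, 1.56, -0.91, -0.04 and -2.18 are to be read beside these medians. With the trend for exon length, GC content and level removed, the log2 fold changes were smaller, at 1.16 for Zeb1, 0.96 for Snai2, 0.53 for Zeb2, 0.38 for Grhl2, -0.80 for Elf3 and -1.03 for Twist1. All 6 were still called (limma adjusted p between 0.00162 and 0.0191). Zeb2, Snai2 and Grhl2 were in this fit, too, only through the treated group, so their calls add nothing beyond their values.

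**Figure D3:**
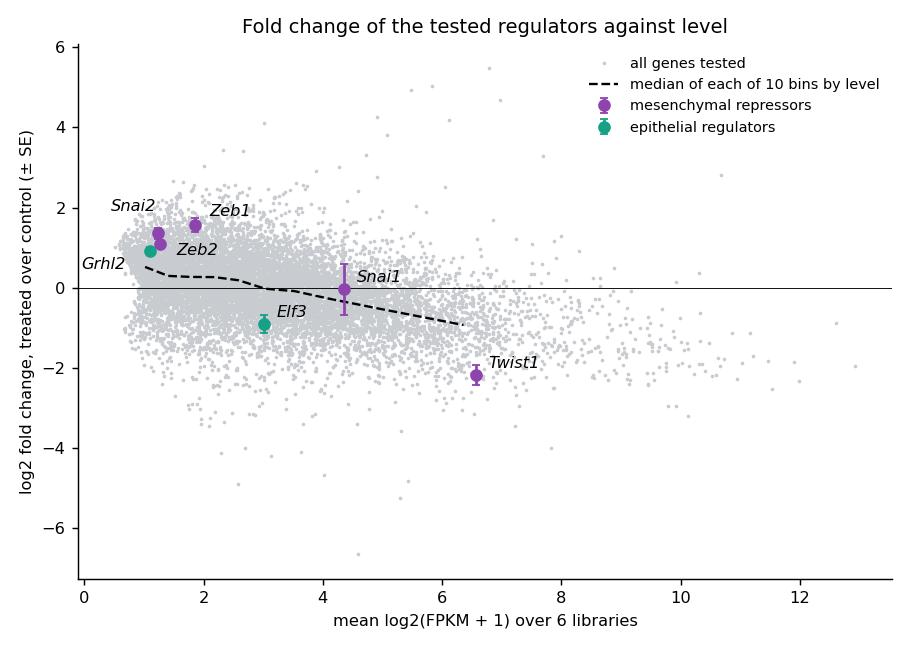
Log2 fold change, treated over control, against mean log2(FPKM + 1) for all genes tested (grey), with the 7 tested regulators and their SE. The dashed line joins the medians of 10 bins by level, with 0.52 at the left and -0.93 at the right. The 4 regulators that rose lie at the scarce end and Twist1 at the abundant end.

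The differences among controls were shared by several regulators. Control 2 was the control nearest to the treated mean for Zeb1, Zeb2, Snai2, Twist1 and Elf3, control 1 for Snai1 and Grhl2. Among all genes tested, control 2 was nearest for 48.4%, control 1 for 25.7% and control 3 for 25.9%. Against control 2 alone the log2 fold change was 1.20 for Zeb1, 1.03 for Zeb2, 1.09 for Snai2, 0.90 for Grhl2 and -1.78 for Twist1. Directions were therefore the same against each control for these 5 genes and for Elf3, and not for Snai1. With libraries scaled to the same FPKM total, which moved the median of all genes to 0.81, the values were 2.26 for Zeb1, 1.68 for Zeb2, 1.93 for Snai2, 1.47 for Grhl2, 0.90 for Snai1 and -1.19 for Twist1. Relative to that median, Elf3 and Twist1 stayed below it and the 4 regulators that rose stayed above it.

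**Figure D4:**
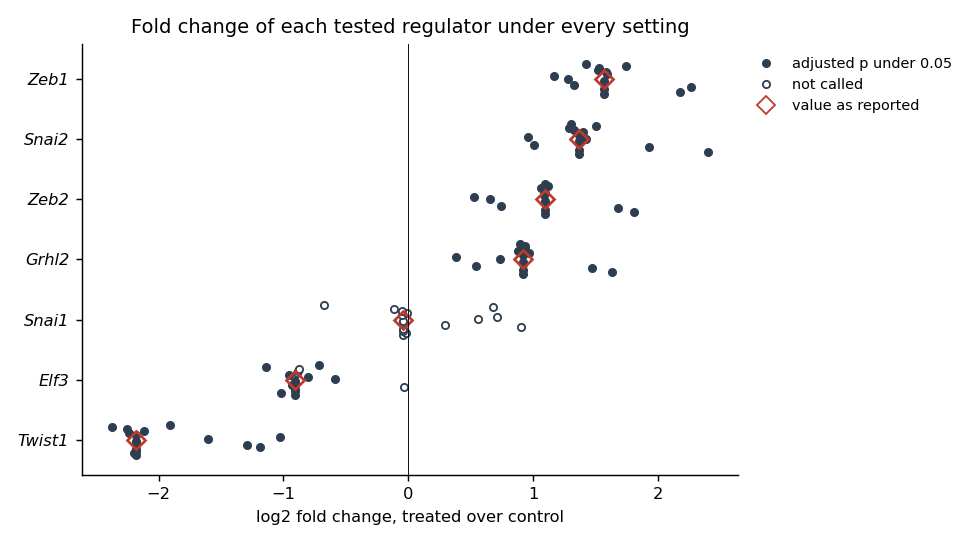
Log2 fold change, treated over control, of the 7 tested regulators as reported (diamond) and under the alternative settings (points; open where not called). Snai1 lies on both sides of 0, and Elf3 has open points near -0.9 and at -0.03.

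Genes with the most similar profile were sought for the regulators with the largest called rise and fall in log2 fold change, Zeb1 and Twist1, by the root mean square difference of centred log2(FPKM + 1) profiles over the 6 libraries. For Zeb1 they were Zfp148, Arid5b and Manea, at differences of 0.0410, 0.0685 and 0.0698. Zfp148 stood at 6.83, 6.64 and 7.73 FPKM in treated and 1.54, 2.45 and 1.08 FPKM in control libraries. For Twist1 they were Cdkn2d, Ost4 and Hyou1, at 0.0632, 0.0779 and 0.0821. They were found among 9757 genes, and 6 libraries in 2 groups make close profiles common.

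The label of a mammary carcinoma line was checked against its markers. Krt8, Krt18 and Krt19, keratins of simple epithelium, were abundant in every library, and the 7 epithelial markers summed to between 741.2 and 777 FPKM in treated and between 1536 and 2262 FPKM in control libraries. Cdh1 was nearly absent, at 0.0924, 0.0989 and 0.0593 FPKM in treated 1, 2 and 3 against 0.0699, 0.0689 and 0 in control 1, 2 and 3, and Krt7 and Krt14 stayed under 0.12 FPKM in all 6. 4T1 cells are known to express E-cadherin, so its mRNA at or near 0 in both groups goes against the label of the line, and the cells are called 4T1 here only as labelled. Their epithelial character rests on Krt8, Krt18 and Krt19. Epcam, an adhesion molecule, stood between 4.43 and 5.74 FPKM in controls and under 1 FPKM in every treated library. Of the 36 epithelial target genes listed below, 23 were under 1 FPKM in all 6 libraries. The mesenchymal gene Vim stood above each of these keratins in every library. Of the 7 fibroblast markers, 4 reached 1 FPKM, and the list summed to between 52.3 and 55.5 FPKM in treated and between 204.4 and 1168 FPKM in control libraries. Nearly all of this was collagen mRNA, with Col1a1 at 28.8 to 31.1 FPKM in treated and 112.3 to 754.1 FPKM in control libraries and Col3a1 at 20.8 to 22.1 FPKM in treated and 90.2 to 410.9 FPKM in control libraries. The part of this difference in the regulators' results was not tested. Without Col1a1 and Col3a1 the list summed to between 2.08 and 2.38 FPKM in treated and between 1.82 and 2.53 FPKM in control libraries, with Dcn and Lum at or near 0. The 7 leukocyte markers summed to at most 0.818 FPKM in treated and 0.169 in control libraries, with 3 of them at 0 in all 6, and Ptprc stayed under 0.006 FPKM. The 5 endothelial markers summed to between 1.18 and 1.75 FPKM in treated and between 0.744 and 1.16 in control libraries, with Cdh5 alone between 1.03 and 1.46 in treated and between 0.699 and 1.01 in control libraries. The 5 myoepithelial markers summed to at most 0.391 FPKM in treated and 0.0972 in control libraries.

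Genes that act with or under these regulators were counted in 8 lists, and each count is to be read beside the 27.9% higher and 28.3% lower among all genes tested, whose median log2 fold change was -0.01. Of 36 epithelial target genes, 13 were tested, 4 were higher and 5 lower (median -0.26). Tjp1, which encodes the junction protein ZO-1, rose to 18.6 ± 1.33 FPKM in treated cells, against 4.39 ± 0.565 FPKM in controls (SD, n = 3 each). Epcam fell to 0.896 ± 0.117 FPKM in treated cells, against 4.99 ± 0.673 FPKM in controls (log2 fold change -1.66, limma adjusted p = 0.000295). Of 28 mesenchymal effector genes, 18 were tested, 2 were higher and 10 lower (median -0.82). Vim, the intermediate filament of mesenchymal cells, stood at 658, 640.0 and 689 FPKM in treated and 2800.1, 2340.3 and 3264 FPKM in control libraries and fell (-2.07, limma adjusted p = 0.000472). It was not called with quantile normalization.

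Cdh2, which encodes N-cadherin, was among the mesenchymal effectors that rose. It stood at 4.62, 4.43 and 4.72 FPKM in treated and 1.59, 2.21 and 0.656 FPKM in control libraries (log2 fold change 1.22, limma adjusted p = 0.00659). The matrix protease gene Mmp9 was 7.74-fold lower. Fn1, the fibronectin gene, was called lower (-0.73, limma adjusted p = 0.0343) and was 0.26 with libraries scaled to the same FPKM total and 0.08 with the trend for length, GC content and level removed, and it also turned with quantile normalization. It was not called under 9 of 15 alternatives.

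Of 16 other mesenchymal transcription factors, 12 were tested, 6 were higher and 1 lower (median 0.42). The one that fell was Tcf3, an E protein that pairs with TWIST1, at 26.2 ± 1.23 FPKM in treated cells against 47.2 ± 6.58 FPKM in controls (SD, n = 3 each). Tcf3 was not called with libraries scaled to the same FPKM total (0.15), with quantile normalization, or with the trend for length, GC content and level removed (-0.08, limma adjusted p = 0.538). Of the 5 tested among the other epithelial regulators, 1 was higher and 0 lower (median 0.11), namely Trps1, a GATA-type repressor (log2 fold change 0.97, limma adjusted p = 0.00458).

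TGF-beta signalling, an inducer of the repressor genes, was represented by 22 genes, of which 20 were tested, 9 were higher and 3 lower (median 0.57). The list mixes genes that pass the signal on with genes that restrain it, also among those called higher. Its counts therefore give no direction of signalling, which was not tested. The receptor gene Acvr1b rose 5.89-fold. The 3 that fell were Tgfb1, Id1 and Id3. Tgfb1, the ligand gene, stood at 43.1 ± 0.716 FPKM in treated cells against 83.4 ± 14.3 FPKM in controls (SD, n = 3 each), and it was not called with libraries scaled to the same FPKM total (0.06), with quantile normalization, or with the trend for length, GC content and level removed (-0.32, limma adjusted p = 0.125). Id3, whose product binds E proteins and keeps them from pairing with factors such as TWIST1, was 4.96-fold lower.

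Of 24 corepressors and proteins that set the turnover of the repressors, 22 were tested, 5 were higher and 3 lower (median 0.13). Ctbp1, a corepressor of the ZEB proteins, rose to 21.5 ± 0.901 FPKM in treated cells, against 12.9 ± 2.51 FPKM in controls (SD, n = 3 each). Fbxl14, a ubiquitin ligase subunit that targets SNAIL and TWIST1, was 3.76-fold higher. Pak1, a kinase of SNAIL, was lower (log2 fold change -0.85), and was not called with libraries scaled to the same FPKM total (0.12) or with quantile normalization. Kdm1a, a histone demethylase that SNAIL recruits, stood at 26.4 ± 0.5 FPKM in treated cells and 40.4 ± 20.7 FPKM in controls (SD, n = 3 each) and was not called (limma adjusted p = 0.269). Of 10 splicing factors and targets around ESRP1, 9 were tested, 3 were higher, with Mbnl1 (0.96) leading by p, and 1, Enah, was lower (-0.70, median of the list 0.38). Enah lost its call under 7 of the 15 alternatives and was not tested under the minimum mean of 5 FPKM. Isoforms were not measured here. Of 11 microRNA loci and hosts, 9 matched an identifier, 8 were at 0 in all libraries, and 0 were tested.

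The counts of the lists moved with the scaling. With libraries scaled to the same FPKM total, where 7172 of all genes were called higher and 736 lower, epithelial targets had 7 higher and 3 lower and mesenchymal effectors 7 higher and 8 lower. The other mesenchymal factors then had 8 higher, the other epithelial regulators 5, the corepressor list 20 and the ESRP1 list 8, each with 0 lower, and the TGF-beta list had 15 higher and 2 lower. The list medians were then 0.55 for epithelial targets, 0.10 for mesenchymal effectors and 1.43 for TGF-beta genes, against 0.81 for all genes. With the trend for length, GC content and level removed, 2437 of 10993 genes were called higher and 2520 lower (median -0.01). Mesenchymal effectors there had 4 higher and 7 lower (median -0.29), and the other mesenchymal factors 2 higher and 0 lower (0.00). Epithelial targets had 4 higher and 2 lower (-0.15), and TGF-beta genes 7 higher and 2 lower (0.33). The corepressor list then had 6 higher and 4 lower, the ESRP1 list 3 and 1, and the other epithelial regulators 1 and 0. With quantile normalization, 3026 of 11118 genes were called higher and 2725 lower (median 0.03). Mesenchymal effectors there had 5 higher and 6 lower (median -0.26), and the other mesenchymal factors 3 higher and 1 lower (0.14). Epithelial targets had 3 higher and 3 lower (-0.07), and TGF-beta genes 11 higher and 2 lower (0.49). The corepressor list then had 8 higher and 1 lower, the ESRP1 list 5 and 1, and the other epithelial regulators 1 and 0. Higher and lower calls among mesenchymal effectors were thus closer in number under each of these settings than in the reported fit. With libraries scaled to the same FPKM total, lower calls among all genes also fell, from 3141 to 736. There 8 of the 18 tested effectors were still lower.

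**Figure D5:**
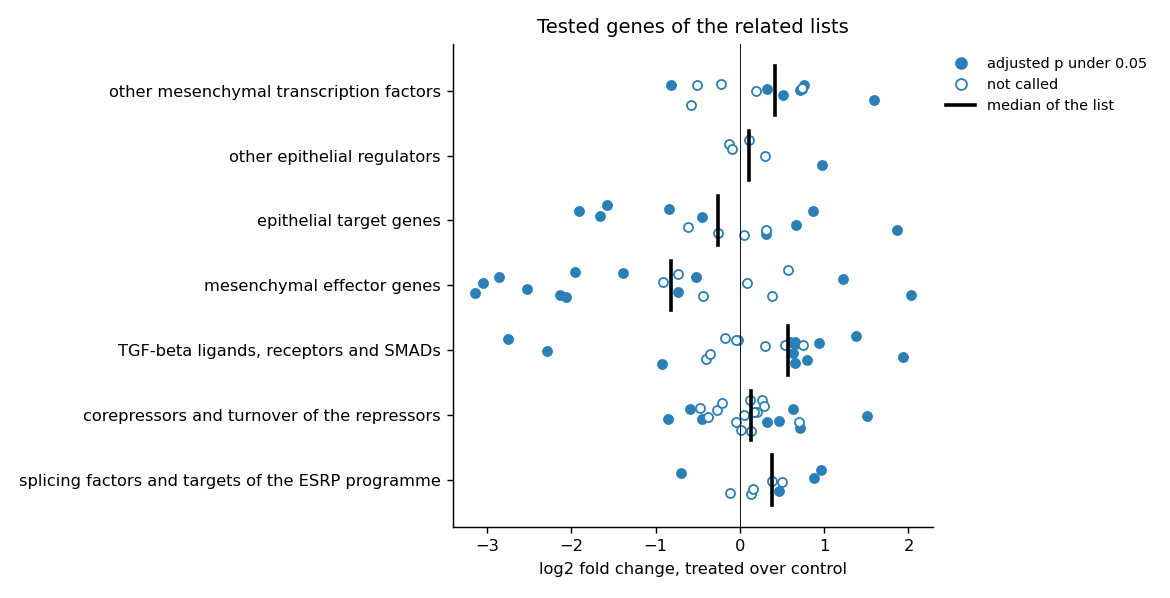
Log2 fold change, treated over control, of each tested gene in the 7 related lists with tested genes; filled points were called and open points were not, and the black bar is the list's median. Mesenchymal effectors lie mostly below 0, with a median of -0.82, and TGF-beta genes lie on both sides, with a median of 0.57.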

How the data were processed

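The authors deposited 1 FPKM value per gene and library, per the file headers. Per the labels' protocols, 3 µg of RNA was selected on poly-T beads, primed with random hexamers and sequenced as paired reads of 150 bases. No source used here names the aligner, counter, genome build, annotation or strand setting. Symbols for 52125 of 56748 identifiers, coordinates and exon lengths came from GENCODE M21 (GRCm38), and the authors' annotation may be another. Reads per gene were calculated back from the step between low values, which made at least 92.3% of values under 200 reads whole within 0.02. Median-of-ratios factors were 1.01 in every library, so the values had been scaled between libraries. Values on the log2(FPKM + 1) scale were fitted with limma 3.58.1 (R 4.3.3), with group as the only term and a prior variance that follows the level, for genes at 1 FPKM in 3 or more libraries. The fit was also run on simulated data in which few genes changed and both groups had the same spread. In the data the controls spread more and many genes were called, so that run does not measure the error of these calls. Replicates differed by more than counting noise in every pair of libraries (chi-square per gene of at least 10.6, where counting noise gives about 1 for independent reads). Both reads of a fragment could be counted here, which raises the value that counting noise gives. Regulators and lists were chosen with earlier results of these data known. Named genes were all 10 regulators, the called gene with the smallest p in each direction of each list, and 13 genes chosen by name. 1 gene that this rule names is not reported here. Alternatives are described in the closing section.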

Additional observations from a re-analysis of the deposited data

How the results depend on the processing

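Across 15 alternatives, Zeb1, Zeb2, Snai2 and Grhl2 stayed higher and Twist1 lower in treated cells, each called wherever it was tested. Zeb2, Snai2 and Grhl2 passed the 1 FPKM filter only through the treated group, so their repeated calls under that filter add nothing beyond their values. A minimum mean of 5 FPKM left out the 4 that rose, so 0 regulators were called higher there. It also cut calls among all genes to 1070 higher. With libraries scaled to the same FPKM total, 7172 genes were called higher and 736 lower, 1 regulator was called lower, and Snai1 turned to 0.90. Snai1 also turned with quantile normalization (0.29), with the length and GC trend removed (0.56), with level added (0.71) and without control 2 (0.68), was -0.68 without control 3, and was not called under any of the 15. Leaving out 1 library at a time gave 2279 to 3634 genes higher, 2140 to 3778 lower, 4 regulators higher in every case and 1 to 2 lower, Elf3 being the gene that dropped out. With no filter, 4075 genes were higher and 2719 lower. With the replicate number as a block, 2618 genes were higher and 2669 lower, the same 6 regulators were called, and the numbers did not pair the libraries (correlations of same-numbered deviations -0.05, -0.11 and -0.14). A count model on reads calculated back was not run, the deposited unit being FPKM. Scarce control values (16 to 49 reads for Snai2) limit the size of its fold.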
